A study of Mus musculus with 6 samples.

Results

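Cultured cells of the retinal pigment epithelium (RPE) were the 1492 cells that carried the cell type name RPE in the annotation deposited with the counts, of 25428 cells and 8 cell types in all. The other cells were Fibroblast (12651), Fibroblast proliferating (6465), Fibroblast 2 (3019), Fibroblast-like (1121), Pericyte (308), Endothelial (288) and Myeloid (84). The cells were dissociated with papain from RPE and choroid of male C57BL/6J mice aged 12 to 16 months, cultured for about a week and read with the 10x Genomics single cell 3′ v2 chemistry. There were 3 Dram2 wt/wt samples and 3 Dram2 ko/ko samples. Dram2 ko/ko mice carried a CRISPR/Cas9 deletion of Dram2 exon 4 in every cell of the body, so the deletion was not limited to RPE cells, and mice of both genotypes shared strain, sex and age range. Batch 1 held 5 samples, and Dram2 ko/ko replicate 3 was the only sample of batch 2. The number of animals behind a sample is not given in the sources used here, and p-values therefore measure the spread between these samples, which may be partly technical.

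The RPE is the pigmented epithelial sheet between photoreceptors and choroid. It regenerates the visual chromophore, takes up shed photoreceptor outer segments, transports ions and nutrients, and secretes factors toward both sides. In the embryo it arises from the optic cup under transcription factors such as Otx2, Mitf and Lhx2. In culture, RPE cells are known to re-enter the cell cycle and to lose pigment and visual cycle gene expression while taking on mesenchymal features.

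The deleted exon, the fourth of 9 exons of transcript Dram2-202, lay at chr3:106561749-106561816 on the plus strand of GRCm38.p6. It is shown because it is what separated the genotypes. Its 68 bases, all within the coding sequence, leave a remainder of 2 when divided by 3.

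Dram2 exon 4: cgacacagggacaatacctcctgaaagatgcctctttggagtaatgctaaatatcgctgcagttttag

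Reads of 3′ chemistry fall near the end of the transcript, and the last exon lay at chr3:106573575-106575890, so the Dram2 count did not check the deletion. Dram2 reached 32.8, 30.3 and 37.8 CPM (a gene's count scaled to a total of 1000000 counts in the summed RPE cells of a sample) in Dram2 wt/wt replicates 1 to 3, with 34.0, 28.3 and 20.2 CPM in the Dram2 ko/ko replicates 1 to 3. The ranges of the genotypes overlapped (log2 fold change -0.40, SE 0.25, voom-limma adjusted p 1.0), and the log2 fold change was -0.019 without Dram2 ko/ko replicate 3 and -0.16 without both that replicate and replicate 2 of Dram2 wt/wt. Counts are of unique molecular identifiers (UMIs), 1 per captured RNA molecule, so CPM of this chemistry does not depend on gene length. Further values of single samples are given in the order Dram2 wt/wt replicates 1, 2 and 3, then Dram2 ko/ko replicates 1, 2 and 3.

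RPE cells numbered 56, 539, 152, 68, 102 and 575 per sample. They made up 1.46%, 11.7%, 3.52%, 3.18%, 1.53% and 14.8% of the cells, so that replicate 2 of Dram2 wt/wt and replicate 3 of Dram2 ko/ko together held 1114 of the 1492 RPE cells (74.7%). The mean share was 5.57% ± 5.42 (SD, n = 3) for the Dram2 wt/wt samples and 6.49% ± 7.21 (SD, n = 3) for those of Dram2 ko/ko. The difference of 0.926 percentage points was smaller than the spread within either genotype (exact two-sided permutation p 0.8; 3 samples against 3 cannot go below 0.1). Its direction turned without the 2 samples that held most RPE cells, to a difference of -0.135 percentage points, and within batch 1 it was -3.21 percentage points. The summed counts of RPE cells were 2012544, 11466975, 4599761, 2849628, 2153285 and 16568168 UMIs. Fewer cells of a type and less RNA per cell cannot be told apart in such sums, so the depth per cell is given as well. The median RPE cell held 33968.5, 12559, 27434, 19373, 21172 and 27558 UMIs. The difference between genotypes was -1953 UMIs (Dram2 wt/wt 24654 ± 10972, Dram2 ko/ko 22701 ± 4301, SD, n = 3 each, exact two-sided permutation p 1). It was larger without the 2 samples with most RPE cells, where both remaining Dram2 ko/ko samples lay below both of Dram2 wt/wt, with a difference of -10429 UMIs (n = 2 each, exact permutation p 0.333, the smallest that 2 against 2 allow). Against Fibroblast cells of the same sample, the log2 ratio of median UMIs was -0.43 on average (SD 0.73, n = 6, exact two-sided sign-flip permutation p 0.3125).

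These samples, replicate 2 of Dram2 wt/wt and replicate 3 of Dram2 ko/ko, differed from the others in the genes of their RPE cells as well as in number, and are called the samples that stood apart. Over 10673 genes, the log2 profiles of the other 4 samples correlated at 0.964 to 0.978 in 6 pairs, the profiles of the 2 samples that stood apart at 0.970, and pairs across these sets at 0.934 to 0.967 for Dram2 wt/wt replicate 2 and at 0.891 to 0.915 for Dram2 ko/ko replicate 3. The profile of Dram2 wt/wt replicate 2 thus lay between those of the 4 samples and of Dram2 ko/ko replicate 3. These correlations are across genes, which are not independent replicates. Dram2 wt/wt replicate 2 also held many near-identical RPE cells, meaning cells whose counts differed by no more than sampling noise allowed. Such cells numbered 2, 175, 9, 5, 0 and 16 in the 6 samples, or 32.5% of the RPE cells of Dram2 wt/wt replicate 2 against 0% to 7.35% in the others, with up to 32 cells in 1 group. The near-identical cells of Dram2 wt/wt replicate 2 were shallow, with a median of 5839 UMIs against 23786 in its remaining RPE cells. In the other samples that held such cells, their medians were 6098.5 to 11645 UMIs against 22903 to 34699 UMIs. Their share may therefore depend on depth, which was not tested. Counting each group once, by its deepest cell, moved the median RPE cell of Dram2 wt/wt replicate 2 from 12559 to 22172 UMIs. The genotype difference moved to -4582 UMIs (exact permutation p 0.2). Both shifts follow from shallow cells being left out. Across samples, none of 781825 pairs of RPE cells was near-identical and 0 cell identifiers were shared. Counting each near-identical group once left 1328 RPE cells (55, 391, 148, 65, 102 and 567).

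The summed RPE cells of each sample carried the markers of their name, although not every cell did. Krt18, a simple-epithelium keratin, reached 972, 420, 739, 924, 976 and 231 CPM. Krt8, a further keratin listed as an RPE marker, was low, at 0 to 8.31 CPM in the sub-clusters of RPE cells described further on. Ptgds, the lipocalin-type prostaglandin D synthase, reached 715, 260, 493, 676, 883 and 151 CPM, and Otx2, the transcription factor of RPE identity, 84, 71.6, 103, 103, 104 and 57.5 CPM. Every sample lay far above the Fibroblast means of 3.50 CPM for Krt18, 0.649 CPM for Ptgds and 0.119 CPM for Otx2. Rgr, a retinal G protein-coupled receptor of the RPE that isomerises retinal, was the most uneven of the 6 markers at 26.8, 25.1, 48.0, 104, 63.2 and 6.16 CPM, with 0.118 CPM in Fibroblast cells. Mlana, a melanosome protein, had 8.45, 4.45, 10.0, 13.3, 13 and 2.11 CPM, and Tyr, the enzyme that starts melanin synthesis, 2.48, 3.75, 5, 3.16, 2.32 and 1.03 CPM. Dram2 ko/ko replicate 3 was lowest for all 6 markers, and for Krt18, Ptgds, Otx2, Rgr and Mlana the 2 samples that stood apart were the lowest 2.

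**Figure D1:**
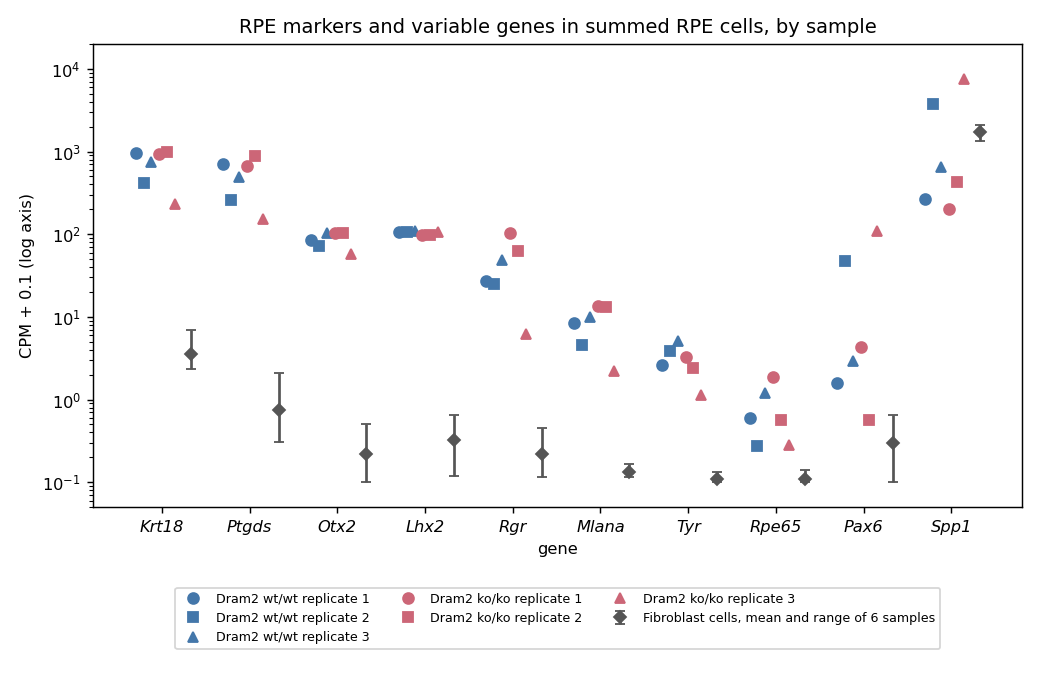
CPM + 0.1 (log axis) of the 6 markers and of Lhx2, Rpe65, Pax6 and Spp1 in the summed RPE cells of each sample (blue, Dram2 wt/wt; red, Dram2 ko/ko; 1 point a sample), with the mean and range of Fibroblast cells over the same 6 samples in grey. RPE points lie above the Fibroblast range for every marker, Rgr spreads from 6.16 to 104 CPM, and Pax6 and Spp1 are highest in replicate 2 of Dram2 wt/wt and replicate 3 of Dram2 ko/ko.

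The same markers were counted per cell after each cell was thinned to 8000 UMIs, which left 1142 RPE cells (median 28630 UMIs before thinning) and 11663 Fibroblast cells (median 27548 UMIs). Of the cells left out as shallower, 252 were among 747 Dram2 wt/wt RPE cells and 98 among 745 Dram2 ko/ko RPE cells. A Krt18 UMI was found in 54.6% of RPE cells and 1.97% of Fibroblast cells, the latter serving as the background of free RNA. Shares were 45.9% against 0.497% for Ptgds, 34.3% against 0.0686% for Otx2 and 9.37% against 0.0772% for Rgr. Unthinned, 64.6%, 60.3%, 49.1% and 17.2% of all RPE cells held a UMI of Krt18, Ptgds, Otx2 and Rgr. Mlana and Tyr were found in 3.59% and 1.93% of thinned RPE cells against 0.00857% of Fibroblast cells for each. Dram2 ko/ko replicate 3, which gave 513 of the 1142 cells, had 0.975% and 0.585%. The other samples had 4.07% to 10.5% for Mlana and 0% to 3.92% for Tyr. Marker UMIs were thus far above the background, while many RPE cells held none of a given marker at this depth. The Rgr share differed widely between samples, at 7.5%, 10.8%, 19.5%, 31.2%, 24.4% and 1.56%. The Krt18 share was 87.5%, 60.5%, 87.0%, 89.6%, 91.9% and 30.8%, so the pooled share was lowered by replicate 2 of Dram2 wt/wt and replicate 3 of Dram2 ko/ko.

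Beyond the markers, the genes that set RPE cells apart from all other types were ranked by their mean CPM against the highest other type. Types were named by the study from the same counts, so these values are descriptions without a test. The levels set beside these genes are those of Fibroblast cells, which need not be the highest other type. Leading the order after Ptgds and Krt18 were Ermn, which encodes the cytoskeletal protein ermin (93.9 CPM ± 53.4, SD, n = 6, against 0.118 CPM in Fibroblast cells), and Angptl7, a secreted angiopoietin-like protein (128 CPM ± 59.2 against 0.541 CPM). Lhx2, an eye-field and optic cup transcription factor, followed Otx2 with an even level of 105, 106, 109, 97.6, 98.9 and 107 CPM. Lhx2 therefore did not separate the 2 samples that stood apart, whereas Ermn at 56.8 and 14.1 CPM there lay below the 90.4 to 167 CPM of the others. Lrp2, the endocytic receptor megalin, had 95.5 CPM ± 17.6 against 4.17 CPM. Folr1, a folate receptor, had 17.4, 59.3, 20.2, 27.0, 12.5 and 90.1 CPM against 1.27 CPM, and was highest in the samples that stood apart. Gldc, the glycine decarboxylase of the glycine cleavage system, had 112 CPM ± 26.7 against 2.73 CPM. The list also held genes of cornified surface epithelium, Ivl (involucrin, 116 CPM ± 61.3 against 2.65 CPM) and Lce1g (1335 CPM ± 541 against 14.3 CPM), and the chemokine Ccl17 (183 CPM ± 85.2 against 7.18 CPM). The remaining genes among the first 20 were Rgr, Tmem56, Bmp7, Lrit1, Paqr9, Upk3bl, Cpa4 and Tcfl5.

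**Figure D2:**
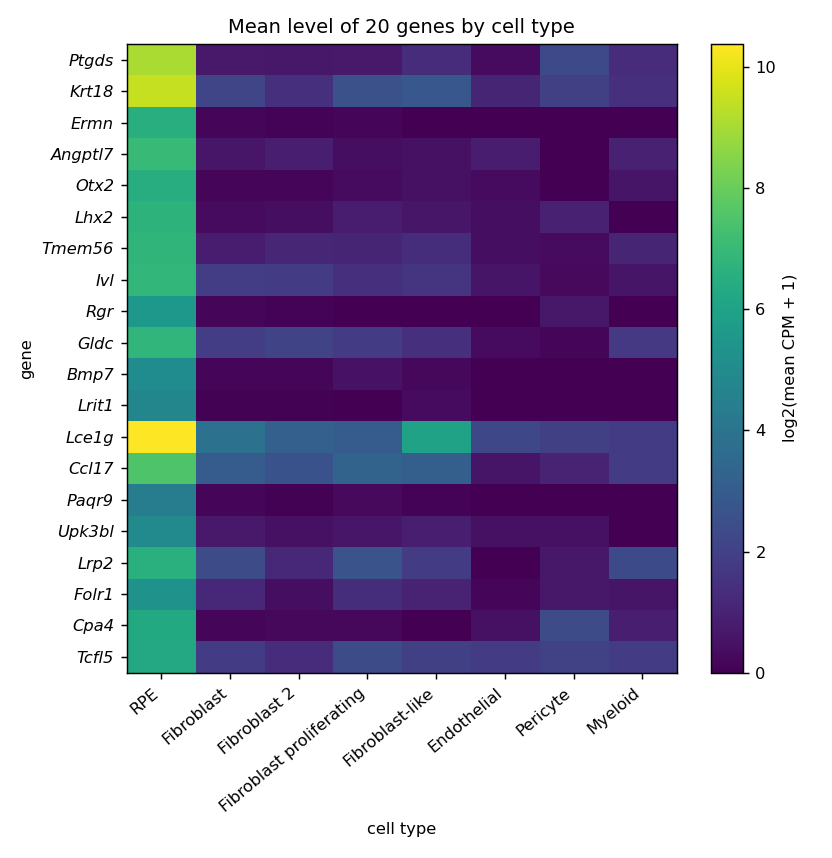
Mean level over samples, as log2(mean CPM + 1) in colour, of the 20 genes that ranked highest in RPE cells against the highest other type, with a row for each gene and a column for each of the 8 cell types. The RPE column is the brightest in each row, with means from 20.3 CPM (Paqr9) to 1335 CPM (Lce1g).

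The 10 genes lowest relative to Fibroblast cells were Dcn, Col3a1, Col2a1, Aldh1a2, Slc1a6, Mgp, Actg2, Lum, Dkk2 and Nkd2, in that order. They included matrix genes beside a glutamate transporter (Slc1a6) and a smooth muscle actin (Actg2). Dcn (decorin) had 39.0 CPM ± 28.1 (SD, n = 6) in RPE cells and 580 CPM in Fibroblast cells, Mgp (matrix Gla protein) 264 CPM ± 157 and 2931 CPM, and Col3a1 18.7 CPM ± 15.3 and 241 CPM. Dkk2, a Wnt antagonist, had 35.1 CPM ± 15.1 and 375 CPM, and Aldh1a2, a retinaldehyde dehydrogenase, 5.89 CPM ± 3.07 and 79.8 CPM. Among RPE cells, Dcn, Mgp and Dkk2 were highest in 1 sub-cluster, led by Uts2b and described further on. Slc1a6 had 18.1 CPM ± 9.28 and 216 CPM, and Actg2 103 CPM ± 76.7 and 1090 CPM. All 10 genes were lower in RPE than in Fibroblast cells in 6 of 6 samples.

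Gene lists for RPE functions and for other cell types were then compared with Fibroblast cells, the most numerous type. A gene entered where its mean reached 5 CPM in either type, and was counted as higher or lower where the means of CPM + 1 differed by 2-fold or more and all 6 samples lay on that side. The side of a gene that reached 5 CPM in 1 type only was largely set by that minimum, in every list below, so the counts describe the lists and do not test them. Of 11250 genes compared, 884 were higher in RPE cells (7.86%) and 831 lower (7.39%), with a median log2 ratio of 0.024. Of 15 transcription factors of the optic cup and RPE, 8 reached the level for comparison and were higher, with a median log2 ratio of 3.76. All of these but Sox9 entered through their level in RPE cells alone, so the count was largely set by that minimum. They were Six3 (220 CPM ± 22.6), Lhx2, Sox9 (94.9 CPM ± 23.5), Otx2, Pax6, Mitf (8.92 CPM ± 4.11), Rax and Otx1. Six3 was not particular to RPE cells, since Endothelial cells had 283 CPM. Pax6, which is required for eye formation, had 1.49, 47.4, 2.83, 4.21, 0.464 and 108 CPM, and was high in the 2 samples that stood apart alone. Rax, at 3.98, 11.1, 1.74, 1.05, 0.929 and 28.0 CPM, and Otx1, at 1.49, 12.0, 0.652, 1.75, 0.464 and 27.2 CPM, were likewise highest there. Without those samples Pax6, Rax and Otx1 averaged 2.25, 1.92 and 1.09 CPM, under the 5 CPM needed for comparison.

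The visual cycle list was split. Its intermediates Rdh5, the 11-cis-retinol dehydrogenase (75.8 CPM ± 12.3 against 2.80 CPM), Rgr and Rlbp1, a retinaldehyde-binding protein (6.59 CPM ± 2.61 against 0.0474 CPM), were above Fibroblast cells, in total 6 of 12 compared with 2 lower, and the 3 named entered through their RPE level alone. The isomerohydrolase Rpe65, which defines mature RPE, was close to absent at 0.497, 0.174, 1.09, 1.75, 0.464 and 0.181 CPM, and Lrat, the lecithin retinol acyltransferase that makes its substrate, had 2.42 CPM ± 1.63. Of the melanin and melanosome list, 3 of 7 compared were higher and none lower. Slc24a5, an ion exchanger of melanosomes, was even at 235, 181, 195, 208, 223 and 188 CPM against 26.2 CPM in Fibroblast cells. The pigment enzymes and matrix stood near 0, with Tyrp1 at 0.505 CPM ± 0.264, Dct at 1.73 CPM ± 0.673 and Pmel at 0.387 CPM ± 0.202. Best1, a chloride channel of mature RPE, had 0.196 CPM ± 0.230, below the 0.760 CPM of Fibroblast cells. RPE cells of these cultures thus held Six3, Lhx2, Otx2, Sox9 and Slc24a5 at means above 80 CPM, Mitf at a lower level, and Rpe65, Best1, Tyrp1 and Pmel at under 1 CPM.

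The promoters of these genes were searched for the letters CATGTG on either strand, an E-box form known to be bound by Mitf and related factors, in the 250 bases before and 50 bases after each RefSeq start. The match was present in 6 of 10 melanin list genes with a promoter entry (60%), in 3 of 11 visual cycle genes (27.3%) and in 4293 of 27025 genes overall (15.9%). Windows of up to 46 bases are shown for 5 genes whose levels span the observed range, on the strand of the gene, with the match in capitals (CACATG is the match read on the other strand).

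Slc24a5 chr2:125068094-125068139: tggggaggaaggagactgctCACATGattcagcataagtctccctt
Tyrp1 chr4:80834147-80834192: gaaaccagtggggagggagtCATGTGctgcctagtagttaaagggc
Tyr chr7:87493508-87493553: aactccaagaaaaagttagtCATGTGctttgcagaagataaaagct
Rgr chr14:37048994-37049039: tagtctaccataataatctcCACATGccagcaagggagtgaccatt
Rpe65 chr3:159598931-159598967: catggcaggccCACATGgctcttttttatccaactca

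Positions are on GRCm38.p6. Genes with the same letters in this window stood at 205 CPM (Slc24a5), 45.6 CPM (Rgr), 2.96 CPM (Tyr), 0.693 CPM (Rpe65) and 0.505 CPM (Tyrp1). These genes were chosen to span the levels, so nothing about the match follows from their spread, and a match describes the sequence and not binding.

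Of the junction and polarity list, 8 of 14 compared were higher and 1 lower, and 12 of its 31 genes were under 1 CPM in RPE cells. Ezr, the ezrin that links apical microvilli to actin, had 623, 464, 678, 741, 756 and 278 CPM against 28.0 CPM in Fibroblast cells, and its partner Slc9a3r1 129 CPM ± 23.8 against 26.9 CPM. Cdh3 (P-cadherin) had 49.9 CPM ± 12.8 against 5.36 CPM and Cldn1 (claudin-1) 38.2 CPM ± 9 against 0.786 CPM. Cdh1 (E-cadherin) was at 0.359 CPM ± 0.158, and Cldn19, the main claudin of RPE, was at 0, 1.31, 0, 0, 0 and 3.56 CPM. Among transport genes 5 of 12 were higher and 1 lower, with Atp1b1, a subunit of the sodium-potassium pump, at 656 CPM ± 209 against 141 CPM, the glucose transporter Slc2a1 at 158 CPM ± 27.4 against 55.3 CPM, and the bicarbonate transporter Slc4a5 at 10.7 CPM ± 5.82 against 0.0356 CPM. Of the outer segment phagocytosis list only 2 of 13, Ezr and Myo7a, were higher and 2, Itgb5 and Pros1, lower. The receptor kinase Mertk had 34.7 CPM ± 11.4 against 28.7 CPM, and 0 counts of the scavenger receptor Cd36 were found.

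Antioxidant genes were also more often higher than lower. Of 26 compared, 11 were higher and 1, Gpx3, lower, with a median log2 ratio of 0.45. Gsta4, a glutathione transferase acting on lipid aldehydes, had 2084, 713, 1404, 1873, 2111 and 442 CPM against 95.4 CPM in Fibroblast cells, and Prdx6, a peroxiredoxin, 1816 CPM ± 463 against 431 CPM. Both were lowest in the 2 samples that stood apart. Hmox1, the inducible heme oxygenase, averaged 5199 CPM ± 2515 against 2068 CPM, but was above Fibroblast cells in 5 of 6 samples and is not in the count. Among 24 autophagy genes, Sqstm1, the receptor p62, alone was higher (964, 460, 853, 1089, 936 and 332 CPM against 159 CPM) and Uvrag and Dram1 were lower. Dram1, the paralog of Dram2, had 3.05 CPM ± 0.671 against 15.5 CPM. Of 29 lysosome genes 0 were higher and Ctsa alone was lower (78.9 CPM ± 11.7 against 162 CPM), below the background shares for all genes.

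Secreted factors and matrix went both ways. Of the secreted list 5 of 17 were higher (Ptgds, Bmp4, Bmp7, Ttr and Enpp2) and 7 lower. Enpp2, the lysophospholipase autotaxin, had 55.1 CPM ± 25.4 against 2.97 CPM and Bmp4 58.0 CPM ± 11.3 against 8.39 CPM, whereas Timp3, a metalloproteinase inhibitor of Bruch's membrane, had 308 CPM ± 62.6 against 1033 CPM. Of 19 basement membrane genes 3 were higher and 9 lower. The collagen IV chains divided within the list, since Col4a3 (25.3 CPM ± 11.2) and Col4a4 (36.5 CPM ± 16.8) were scarcely found in Fibroblast cells (0.194 and 0.573 CPM), and Col4a1 was lower (211 CPM ± 77.2 against 962 CPM). Among genes of inherited macular disease, 5 of 13 were higher (Otx2, Rdh5, Rlbp1, C1qtnf5 and Abca4) and 2 lower (Timp3 and Efemp1), with Otx2, Rdh5, Rlbp1 and Abca4 under 5 CPM in Fibroblast cells and so entered through RPE cells.

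**Figure D3:**
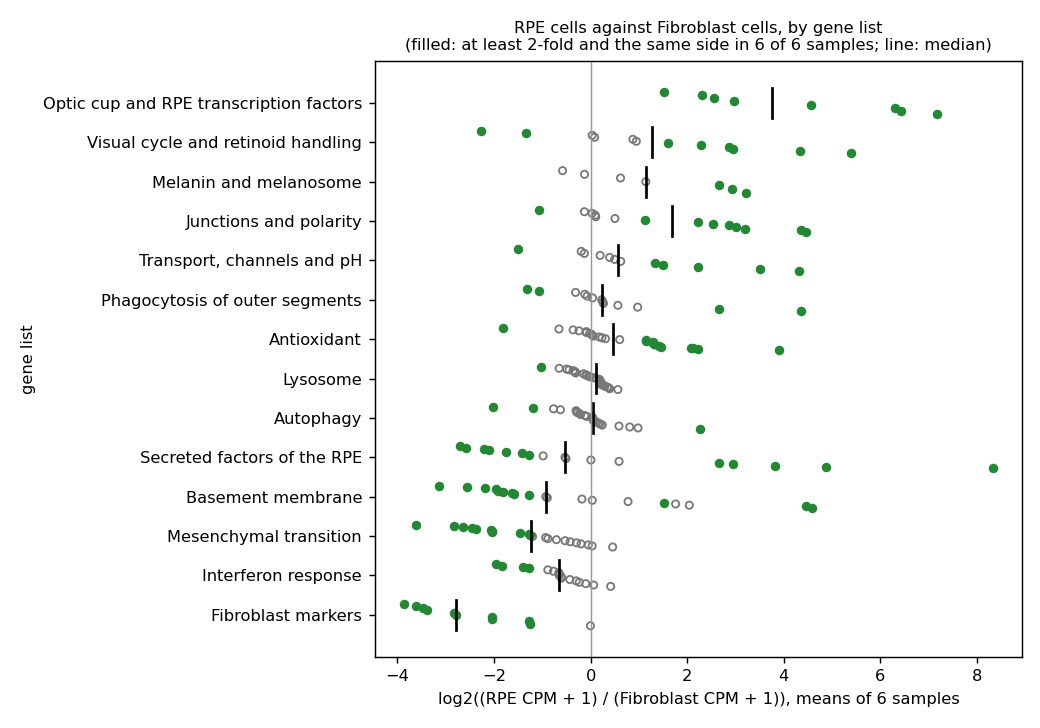
Log2 ratio of RPE over Fibroblast cells (means of 6 samples, CPM + 1) for each compared gene of 14 lists, filled where the ratio was 2-fold or more with all 6 samples on that side, and a line at the median of each list. Optic cup transcription factors have the median 3.76 and fibroblast markers -2.79.

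Markers of other cell types were read in the same sums. Of the fibroblast markers, 10 of 11 were lower than in Fibroblast cells and 0 higher, yet their summed level was 357 to 1305 CPM, highest in Dram2 wt/wt replicate 2. Mesenchymal genes were lower for 11 of 22 and higher for 0, while Vim (vimentin, 7044 CPM ± 1115) and Acta2 (smooth muscle actin, 5807 CPM ± 2258 against 11071 CPM) remained among the abundant RNAs of RPE cells. Pericyte markers were lower for 4 of 4. Markers of melanocytes, cells that share pigment genes with RPE, were higher for 2 of 3, Gpnmb and Mlana, with Kit at 0.189 CPM and Sox10 at 3.11 CPM. All 12 photoreceptor markers and all 8 T cell markers stayed under 1 CPM, and of the surface epithelium list only Pax6 was above that level. Of markers that neural retina glia share with other cells, 4 of 6 were higher and 0 lower, among them Clu (clusterin, 144 CPM ± 28.1 against 30.9 CPM) and Glul (glutamine synthetase, 119 CPM ± 23.8 against 20 CPM), while the defining glial genes Gfap and Aqp4 were at 0.124 and 0.0246 CPM. The lens list had 1 compared gene, the small heat shock protein Cryab, which was higher (8839 CPM ± 4076 against 2303 CPM), and Cryaa was at 0.109 CPM. Endothelial markers were higher for 1 of 4 (Plvap) and lower for 2 (Emcn and Eng), Schwann cell markers higher for 1 of 3 (Mbp) and myeloid markers higher for 1 of 2 (Cd68), with Adgre1 at 0.0145 CPM. Of the ciliary and iris epithelium list 3 of 8 were higher (Bmp4, and Pax6 and Rgr, which entered through their RPE level alone) and 2 lower (Slc4a4 and Tfpi2), and of the keratin and desmosome list 1 of 7, Krt18, was higher and 0 lower. The part of cells of other types in the results was not tested.

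Interferon response genes were higher for 0 of 17 and lower for 4 (Isg15, Usp18, Ifi27 and Ifitm3), with Ifitm3, an antiviral membrane protein, at 317 CPM ± 164 against 1239 CPM. Targets of p53 were higher for 0 of 19 and lower for 3 (Eda2r, Dram1 and Fas), and the 12 mitochondrially encoded genes were higher or lower for 0. Cdkn1a, a cell cycle inhibitor and p53 target, was lower in 6 of 6 samples by less than the 2-fold set for the count (845 CPM ± 225 against 1090 CPM).

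Counted over the 4 other samples alone, with the genes compared kept as above and a choice made after the data were seen, 924 of the 11250 genes were higher (8.21%) and 1008 lower (8.96%), of which 794 and 802 were among the 884 and 831. The visual cycle list was then higher for 8 of 12 and the antioxidant list for 12 of 26. The higher genes rose from 1 to 3 of 24 in the autophagy list and fell from 3 to 2 of 19 in the basement membrane list, and the lower mesenchymal genes rose from 11 to 14 of 22.

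Cell cycle genes were set against Fibroblast and Fibroblast proliferating cells summed together, a choice made after the data were seen. The annotation splits fibroblasts by the cell cycle and leaves RPE cells whole, so that Fibroblast cells alone hold few cycling cells by their naming. Against the pooled fibroblasts, 0 of 29 cell cycle genes were higher and 0 lower, with a median log2 ratio of -0.18, where over all genes 5.8% of 11272 were higher and 7.26% lower. A gene was counted only with all 6 samples on 1 side, so genes whose samples split were left uncounted. The 0 therefore does not show equal levels. Against Fibroblast cells alone 20 of 29 were higher and 0 lower, which cannot be told apart from that naming. Mki67, a marker of cycling cells, had 11.9, 41.8, 15.7, 12.6, 3.72 and 73.5 CPM against 34.3 CPM in the pooled fibroblasts, and Top2a, topoisomerase II alpha, 48.2, 133, 45.9, 33.0, 21.4 and 211 CPM against 137 CPM. A cell was called cycling where its UMIs of Mki67 plus Top2a came to 2 or more after thinning to 8000 UMIs. Cycling cells were 5%, 28.6%, 8.94%, 4.17%, 5.81% and 43.1% of RPE cells. Pooled fibroblasts of the same samples had 23.0%, 23.5%, 20.7%, 24.5%, 25.4% and 25.5%. The 2 samples that stood apart thus lay above their fibroblasts and the 4 others below. Without thinning, 35.5% of RPE cells passed. Between genotypes the shares did not differ beyond their spread (Dram2 wt/wt 14.2% ± 12.7 against Dram2 ko/ko 17.7% ± 22.0, SD, n = 3 each, exact two-sided permutation p 0.9). The difference of 3.50 percentage points became -9.20 within batch 1 and -1.98 without the 2 samples that stood apart.

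The 2 samples that stood apart differed from the other 4 in many genes. Of the 11250 genes, 29.6% were higher in both than in all of the others and 14.5% lower. The 2 samples were set apart after the data were seen, in part by these same profiles. Such counts therefore describe them and do not test a difference. In the cell cycle list 25 of 29 genes were higher and 1 lower. In the mesenchymal list 13 of 22 were higher and 1 lower, and in the basement membrane list 12 of 19 were higher and 2 lower. In the antioxidant list 3 of 26 were higher and 16 lower, and in the lysosome list 3 of 29 higher and 12 lower. The 10 genes that varied most between RPE sums were, in order, Lmcd1, Spp1, Serpinf1, Prrx1, Crct1, Tpm2, Myl9, Cenpf, Cnn1 and Col5a1. Spp1, the secreted phosphoprotein osteopontin, was at 270, 3739, 657, 199, 425 and 7453 CPM. Serpinf1, which encodes the antiangiogenic factor PEDF, was at 29.8, 144, 25.2, 4.91, 35.8 and 198 CPM. Car2, a carbonic anhydrase, had 3.48, 59.8, 8.04, 16.5, 6.04 and 118 CPM, and Zic1, a zinc finger transcription factor, 0, 18.2, 0.217, 0, 0 and 38.2 CPM. Spp1, Serpinf1, Car2 and Zic1 were each higher in both samples that stood apart than in any other. Of these samples, 1 was the only sample of batch 2 and the other belonged to batch 1. Among the sub-clusters described next, Serpinf1 was at 547 CPM in that led by Optc and 203 CPM in that led by Uts2b. In the others, among them the Rgr-high sub-cluster, Serpinf1 was at 8.44 to 15.3 CPM.

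Sub-clusters of RPE cells were made from the 1328 cells left after near-identical groups were counted once, and are called by their leading gene. Their defining genes are descriptions. The Lrit1 sub-cluster, called Rgr-high here, held 342 cells, in which all markers but Otx2 were higher than in the other sub-clusters (Krt18 1005 CPM, Rgr 76.5 CPM, Mlana 14.3 CPM, Otx2 112 CPM). It made up 52.7%, 21.7%, 58.1%, 49.2%, 70.6% and 6.70% of the RPE cells of a sample, and so was smaller in the 2 samples that stood apart than in any other. The Optc sub-cluster (237 cells) and the Col15a1 sub-cluster (323 cells) came from these 2 samples alone, with 59 and 81 cells in Dram2 wt/wt replicate 2, 178 and 242 cells in Dram2 ko/ko replicate 3, and 0 cells in the other 4.

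The Optc sub-cluster went against the name RPE in 5 of the 6 markers but not in Ptgds. It had 1.72 CPM of Otx2, 21.9 CPM of Krt18, 0 CPM of Rgr, 0.313 CPM of Mlana and 0.469 CPM of Tyr, while Ptgds stood at 180 CPM, above the 20.8 CPM of the Col15a1 and 43.3 CPM of the Mmp3 sub-cluster. Rgr, Mlana and Tyr were also low in the Mmp3 (0.867, 0 and 0.289 CPM) and Col15a1 (0.224, 0.559 and 1.45 CPM) sub-clusters. Low Rgr, Mlana and Tyr were thus not particular to it, whereas Krt18 and Otx2 were lowest in the Optc sub-cluster. Slc24a5 was at 55.9 CPM there, beside 150 CPM of Lhx2 and 254 CPM of Six3. Its leading genes were Optc (opticin, 330 CPM), Pcp4l1 (375 CPM), Hmx1 (75.9 CPM) and Zic1 (118 CPM), with Pax6 at 231 CPM and Folr1 at 157 CPM, which was 75.7 CPM in the Col15a1 and 29.7 CPM in the Rgr-high sub-cluster, and no cell type name was given to it. The Col15a1 sub-cluster kept Otx2 at 83.4 CPM and Slc24a5 at 293 CPM, with Rgr at 0.224 CPM, Pax6 at 69.4 CPM and Spp1 at 13918 CPM. Cycling cells were 54.6% (95% Wilson interval 49.0 to 60.2) of the Col15a1, 35.2% (29.1 to 41.8) of the Optc and 4.92% (3.00 to 7.95) of the Rgr-high sub-cluster, intervals that cover counting error only.

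The other sub-clusters had cells in all 6 samples. The Mmp3 sub-cluster (88 cells) had the highest Otx2 at 133 CPM, with Rgr at 0.867 CPM and 37.0% cycling cells. It made up 7.27%, 12.0%, 14.9%, 6.15%, 2.94% and 1.41% of the RPE cells of a sample. The U90926 sub-cluster (176 cells) was shallow, with a median of 7093.5 UMIs against 26768 to 35732 in the other sub-clusters, and had 440 CPM of Ccl17 and 876 CPM of Krt18. In the Uts2b sub-cluster (162 cells), fibroblast genes such as Mgp (1114 CPM against 71.2 CPM in the remaining RPE cells), Dcn (229 against 12.9 CPM) and Dkk2 (189 against 7.56 CPM) stood beside Krt18 (300 CPM), and its median doublet score of 0.168 was above the 0.025 to 0.068 of the others. Whether these cells were doublets (droplets with more than 1 cell) was not tested, since the doublet caller marked under 0.5% of cells in 6 of 6 samples and is taken not to have worked.

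**Figure D4:**
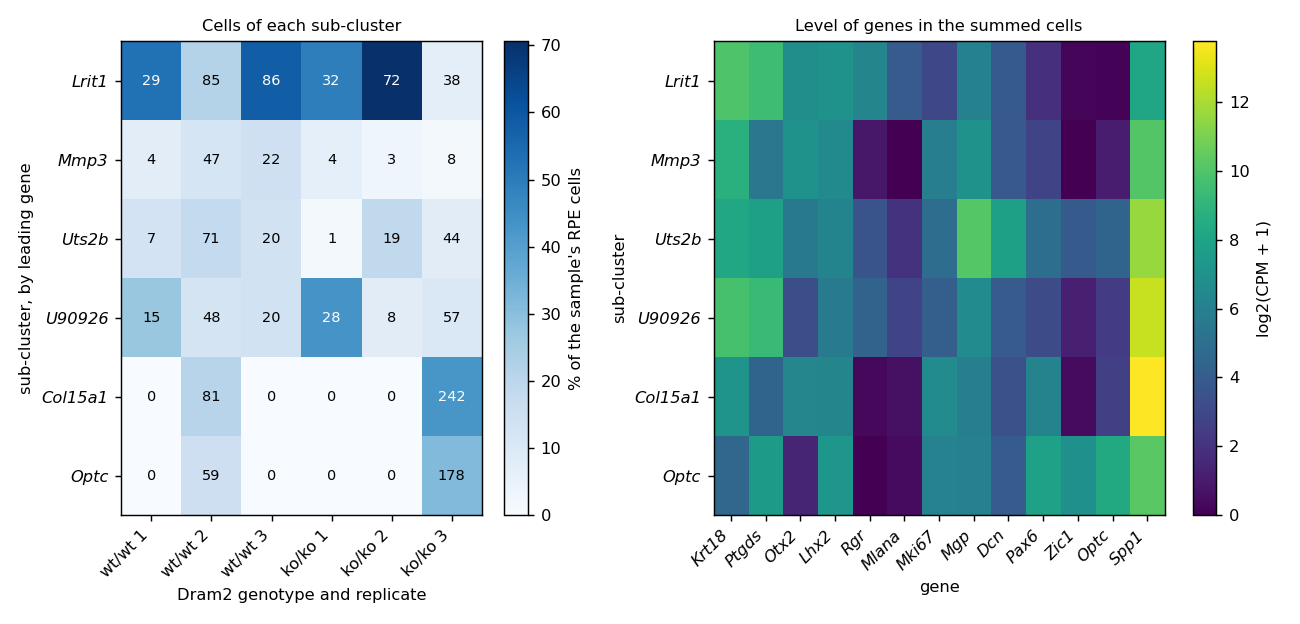
Left, number of RPE cells of each sample in each of the 6 sub-clusters, with near-identical cells counted once, on a colour scale of the percent of the RPE cells of that sample. Right, level of 13 genes in the summed cells of each sub-cluster as log2(CPM + 1). The Optc and Col15a1 sub-clusters have 0 cells in all samples but replicate 2 of Dram2 wt/wt and replicate 3 of Dram2 ko/ko, and the Lrit1 (Rgr-high) row ranges from 6.70% to 70.6%.

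The comparison of genotypes asked whether loss of Dram2 went with a change of RNA within RPE cells. Of 12333 genes tested by voom-limma on the summed counts, 0 were called at an adjusted p under 0.05 (0%), with 573 at an unadjusted p under 0.05, 66 higher and 507 lower in Dram2 ko/ko. The edgeR quasi-likelihood test called 0 (370 at an unadjusted p under 0.05) and DESeq2 called 25, all lower. Within batch 1 alone, which leaves out Dram2 ko/ko replicate 3, voom-limma called 0, and without the 2 samples that stood apart it called 3 (Mmp3 and Gm7808 lower, Lce1l higher). Mmp3 leads a sub-cluster with 4 and 22 cells in the Dram2 wt/wt samples kept and 4 and 3 in those of Dram2 ko/ko. A lower Mmp3 sum cannot be told apart from a smaller share of that sub-cluster. No member of any list was called by voom-limma. The 3 Dram2 ko/ko samples lay above all 3 Dram2 wt/wt samples for 306 genes (2.48%) and below them for 628 (5.09%). Among the former, Edn1, which encodes the vasoconstrictor endothelin-1, had 75.0, 90.9 and 80.4 CPM in Dram2 wt/wt samples against 121, 117 and 129 CPM in those of Dram2 ko/ko (log2 fold change 0.59, SE 0.13, adjusted p 0.322). Pold4, a subunit of DNA polymerase delta, had 117, 133 and 122 CPM against 182, 158 and 169 CPM (log2 fold change 0.47, SE 0.13, adjusted p 0.538). Neither passed the test. Both were named because their genotypes did not overlap, and full separation of 3 samples against 3 has an exact two-sided permutation p of 0.1.

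Among the genes below, the 8 leading ones had an adjusted p of 0.249 each, and 6 of them, such as Rps18-ps3 and Gm7808, are named as pseudogenes or predicted genes. The protein-coding genes were Erh, at 14.9, 16.7 and 18 CPM against 7.72, 6.04 and 4.59 CPM (log2 fold change -1.67, SE 0.25), and Psenen, a subunit of gamma-secretase, at 5.47, 4.71 and 4.57 CPM against 1.05, 0.929 and 0.724 CPM (log2 fold change -2.37, SE 0.36). DESeq2 called Erh (adjusted p 0.0475) and gave no adjusted p for Psenen. Of the 31-base words in the final 400 bases of their transcripts, Erh shared 55.0% and Psenen 29.4% with other genes. Counts of genes with shared sequence may be uncertain, and whether it bore on Erh, Psenen or Pold4 was not tested. For RPE markers the genotype values overlapped. The fitted log2 fold change was -0.13 (SE 0.60) for Krt18 and -0.014 (SE 0.29) for Otx2, both of which turned positive without the 2 samples that stood apart (0.19 and 0.17). For Rgr the fit and the mean differed in sign, with a log2 fold change of -0.42 (SE 1.03) beside means of 33.3 (Dram2 wt/wt) and 57.8 CPM (Dram2 ko/ko), and the fit turned to 1.14 without the 2 samples that stood apart. Tyr was at -1.42 (SE 0.48, adjusted p 0.865), and at -0.33 without Dram2 ko/ko replicate 3. A difference between the genotype effect in RPE and in Fibroblast cells was found for 0 of 19951 genes (0%) by voom-limma, with 371 at an unadjusted p under 0.05, and for 0 by edgeR and 1 by DESeq2.

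Within the Rgr-high sub-cluster, to which each sample gave 29 to 86 cells, the same test called 28 of 10373 genes (0.27%), 26 lower and 2 higher in Dram2 ko/ko. This comparison was added after the data were seen. The 26 lower genes had log2 fold changes from -2.17 to -1.02, and 14 of them were annotated as pseudogenes, which made up 50% of the 28 called and 3.92% of all genes tested. Rps20, a ribosomal protein of the small subunit, had 481, 489 and 535 CPM against 300, 169 and 123 CPM (adjusted p 0.0363). Wdr89, which encodes a WD-repeat protein, had 778, 849 and 975 CPM against 503, 316 and 265 CPM (adjusted p 0.0350), and Cox7c, a subunit of cytochrome c oxidase, 182, 182 and 174 CPM against 99.9, 60.6 and 46.0 CPM (adjusted p 0.0350). The splicing factor subunit Snrpg had 49.6, 60.7 and 53 CPM against 29.1, 9.02 and 9.59 CPM (adjusted p 0.0423). All 4 genes were lower in each Dram2 ko/ko sample than in each Dram2 wt/wt sample. The 2 higher genes were Ccdc71l, with 14.3, 20.5 and 17.7 CPM against 53.7, 36.1 and 34.5 CPM (adjusted p 0.0475), and Hpgd, a prostaglandin dehydrogenase that is itself among the genes defining the sub-cluster.

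The number of calls was not firm, and the lower genes were lower in Fibroblast cells too. All 26 were lower in Fibroblast cells of the same samples, with a median log2 fold change of -1.47 there and -1.46 in the Rgr-high sub-cluster. Both cell types came from the same samples, so the Fibroblast values are no separate check of the genotype. The share of all genes lower in Fibroblast cells was not counted. The 26 genes were also lower, without overlap, in all RPE cells. That sum includes the Rgr-high cells in which the genes were called, so it is no separate check. Ccdc71l and Hpgd had log2 fold changes of 0.47 and 0.48 in all RPE cells and of 0.17 and -0.15 in Fibroblast cells. None of the 28 passed the test in all RPE cells, where the lowest voom-limma adjusted p was 0.249, and none in Fibroblast cells, where Rps20 had 0.0586. The count fell to 0 without Dram2 wt/wt replicate 1 or 3. It was 11 (1 higher, 10 lower) without Dram2 wt/wt replicate 2, with 10 of the 28 kept. Without Dram2 ko/ko replicate 2 the balance turned, with 5 calls (4 higher, 1 lower) and 2 of the 28 kept. There were 16 (4 higher, 12 lower) without Dram2 ko/ko replicate 3, with 11 kept, and 60 (0 higher, 60 lower) without Dram2 ko/ko replicate 1, with 23 kept. There were 15 calls (4 higher, 11 lower) without the 2 samples that stood apart, 3 (all lower) with pseudogenes left out and 1 (lower) with batch as a covariate. All of the 28 that were tested kept their direction in each of these settings, which share most of their samples. Of the 26 lower genes, 25 (96.2%) shared with another gene 10% or more of their 31-base words, taken from the final 400 bases of each transcript, against 2634 of 10356 tested genes with a transcript (25.4%) and 0 of the 2 higher genes. Pseudogenes were 14 of the 26 but 3.92% of all genes tested, so these shares compare unlike sets of genes. Counts of genes that share 3′ sequence with other genes may be uncertain. How reads were assigned was not examined, and whether shared sequence bore on these calls was not tested.

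**Figure D5:**
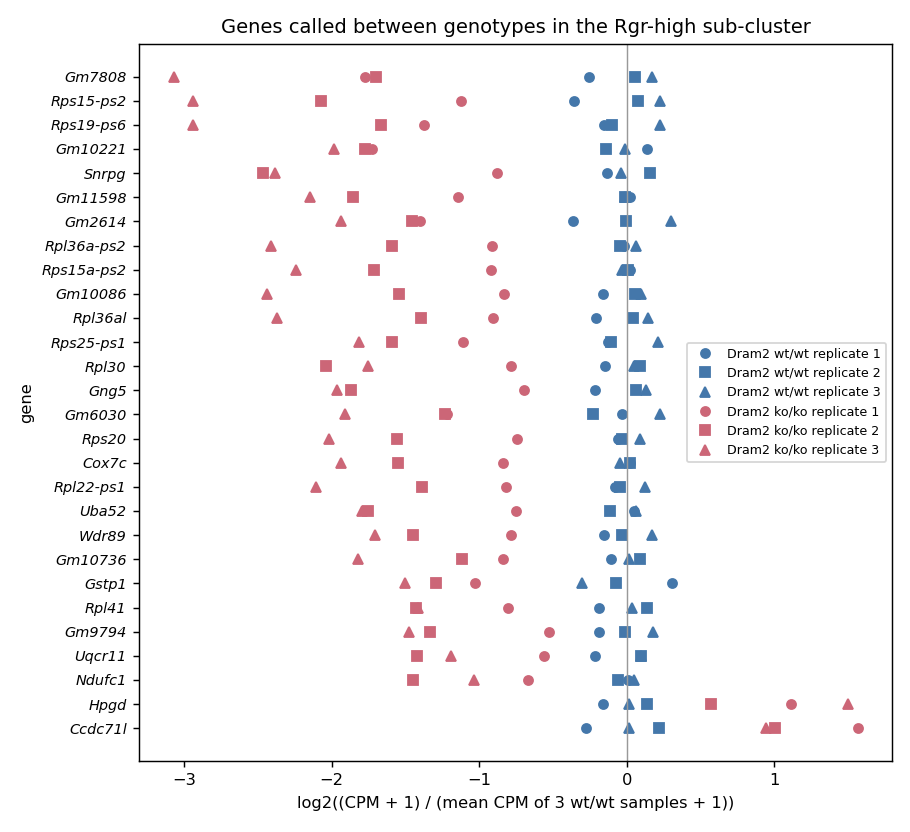
The 28 genes called between genotypes in the Rgr-high sub-cluster, each point 1 sample (blue, Dram2 wt/wt; red, Dram2 ko/ko) on the log2 scale of CPM + 1 relative to the mean of the 3 Dram2 wt/wt samples. In 26 genes every Dram2 ko/ko point lies left of every Dram2 wt/wt point, and in Hpgd and Ccdc71l every one lies right.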

How the data were processed

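The authors deposited UMI counts per gene and cell, with a table of sample, genotype, batch and cell type. Per the labels these counts were made with Cell Ranger 3.1.0 on GRCm38, and the study states exons only. The authors' cell types came from Seurat clusters on log-normalised counts integrated by batch.

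Counts of RPE cells were summed per sample. Genotypes were compared with voom-limma (limma 3.58.1, edgeR 4.0.16, R 4.3.3) after filterByExpr and TMM scaling, without covariates, with Benjamini-Hochberg adjustment of p-values over all genes tested. DESeq2 1.42.0 and edgeR's quasi-likelihood test were alternatives. Single values were compared by exact permutation. The fits were run on simulated data with 200 changed genes, the same dispersion for every gene and no samples that stand apart. That simulation does not show their power on these samples. Cells were handled with scanpy 1.11.5. Near-identical cells had a mean squared deviation of counts, relative to sampling noise, of 1.2 or less over 500 genes. Main sums held all deposited cells. Sub-clusters used 2000 variable genes, 30 components, 15 neighbours and a resolution of 0.3. Doublets were not removed. Log2 ratios of CPM used a pseudocount of 1.

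Genes were named by rank: up to 20 highest in RPE cells against every other type at 20 CPM or more, 10 lowest against Fibroblast cells, 10 most variable between samples at 50 CPM or more, and up to 8 in each direction whose genotypes did not overlap. The Rgr-high genes, Pax6, Zic1, Car2 and other list members shown were chosen after their values were seen. The members and gene lists were chosen with earlier results of these data known. Promoters are from RefSeq and exons and transcripts from GENCODE on GRCm38.p6. The deposited UMAP coordinates were not used.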

Additional observations from a re-analysis of the deposited data

How the results depend on the processing

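The genotype difference in the share of RPE cells, 0.926 percentage points, turned to -0.790 without the sub-clusters of 2 samples and to -0.135 without both samples that stood apart, and ranged from -3.21 to 4.0 with 1 replicate left out. The difference in cycling cells, 3.50 percentage points, was -0.316 in the sub-clusters of all samples, -1.98 without both samples that stood apart and -9.20 to 10.7 with 1 replicate left out, and that in median UMIs, -1953, was -10429 without both samples that stood apart and -8000.25 to 2704.5 with 1 replicate left out. Genotype calls within RPE cells were 25 with DESeq2, 28 in the Rgr-high sub-cluster and 3 without both samples that stood apart, and 0 with each replicate left out. Calls of a difference from Fibroblast cells were 1 with DESeq2. In the Rgr-high sub-cluster 28 calls became 60 with DESeq2, 1 with batch as a covariate, 3 with pseudogenes left out, 15 without both samples that stood apart and 0 to 60 with 1 replicate left out. The same-numbered samples did not deviate together (correlations 0.255, -0.515 and -0.341), and a fit with the replicate number as a block called 0 genes (320 at an unadjusted p under 0.05).

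Log2 fold changes of 7 marker and cycling genes changed sign, none past the threshold. For Krt18 (-0.13) the values were 0.027 with edgeR, 0.034 with DESeq2, 0.53 with the batch, 0.17 in the sub-clusters of all samples, 0.31 in the Rgr-high sub-cluster, 0.19 without both samples and -0.52 to 0.51 with 1 replicate left out. In the same order they were 0.053, 0.063, 0.34, 0.0084, 0.19, 0.17 and -0.20 to 0.34 for Otx2 (-0.014), 0.80, 0.85, 1.44, 0.52, 0.48, 1.14 and -1.52 to 1.42 for Rgr (-0.42, and 0.18 with the replicate block), and 0.28, 0.33, 1.17, 0.40, 0.43, 0.51 and -1.36 to 1.19 for Mlana (-0.67). Ptgds (0.040) was at -0.0065 with library size alone, -0.24 without a filter on low counts and -0.49 to 0.79 with 1 replicate left out. Mki67 (0.28) was at -1.64 with the batch, -0.34 in the sub-clusters of all samples, -0.87 without both samples and -1.58 to 0.97 with 1 replicate left out. Top2a (-0.094) was at 0.25 with edgeR, 0.23 with DESeq2, 0.10 without the filter and -1.27 to 0.41 with 1 replicate left out. The causes were not tested. RPE sums of 2012544 to 16568168 UMIs limit genes at a few CPM.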
